A study of Homo sapiens with 4 samples.

Results

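The 39 genes described here are interferon-stimulated genes, and they were picked by gene symbol from a list of known targets of type I interferon among the 43317 gene names of the arrays. All 39 were present on the arrays, through 53 probes. Expression was measured in 2 established human head and neck squamous cell carcinoma (HNSCC) lines, HN4 and HN30, and in their cisplatin-resistant derivatives HN4/DDP and HN30/DDP, which the sample labels call HN4_CR and HN30_CR. The resistant lines were selected in rising doses of cisplatin, which crosslinks DNA, and were in 20 μM cisplatin for 48 h before harvest by the labels, while no cisplatin is listed for the parental lines. Adaptation to the drug and exposure to it at harvest cannot be told apart here, and each derivative is a single selected line. Each condition had 1 one-colour array, so no difference within a line has a replicate check.

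Type I interferons are secreted proteins that bind the receptor chains IFNAR1 and IFNAR2 and activate the kinases JAK1 and TYK2. STAT proteins are then phosphorylated, join IRF9, and bind a promoter element, the interferon-stimulated response element, in front of antiviral genes. The members cover the sensors of viral RNA, the transcription factors of this pathway, the antiviral proteins themselves and the enzymes that attach the ubiquitin-like protein ISG15. In tumour cells such genes can also be active without infection, for instance after cytosolic nucleic acid is sensed.

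The response element was looked for in the promoters of the members. RefSeq promoter sequences of GRCh38.p14 were found for 31 members, DDX58 under its present symbol RIGI, and were searched in the 250 bases before the start for the core of the element, GAAA, any 2 bases and GAAA, on both strands with overlaps counted. The core was present in 20 of the 31 members, 64.5%, against 3.71% of the 27305 genes in the RefSeq table. In 11 members it occurred more than once in a promoter. A binding site of STAT factors, TTCNNNGAA, was present in 8 of the 31 members, 25.8%, against 8.09% of genes. No entry was used for IFIT2, MX2, OAS2, OASL, IRF7, DHX58, USP18 or TRIM22. The 200 bases before the start follow for the 5 members with a core whose expression differed most between a resistant and a parental array, with each core in capitals.

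IFI27 promoter, chr14:94110536-94110735, plus strand: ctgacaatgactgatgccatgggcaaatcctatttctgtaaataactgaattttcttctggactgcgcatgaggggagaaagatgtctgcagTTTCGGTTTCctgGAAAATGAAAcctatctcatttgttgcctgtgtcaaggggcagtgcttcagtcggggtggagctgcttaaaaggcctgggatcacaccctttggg

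IFI44L promoter, chr1:78620248-78620447, plus strand: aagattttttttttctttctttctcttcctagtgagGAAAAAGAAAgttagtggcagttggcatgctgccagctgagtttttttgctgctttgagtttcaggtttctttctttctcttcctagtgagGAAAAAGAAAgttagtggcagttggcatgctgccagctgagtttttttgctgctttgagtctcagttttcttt

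IFI6 promoter, chr1:27672193-27672392, minus strand: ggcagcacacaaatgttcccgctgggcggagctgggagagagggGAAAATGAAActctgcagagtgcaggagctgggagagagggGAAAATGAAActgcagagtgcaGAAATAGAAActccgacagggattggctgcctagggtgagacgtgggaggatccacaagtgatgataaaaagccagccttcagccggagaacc

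ISG20 promoter, chr15:88638816-88639015, plus strand: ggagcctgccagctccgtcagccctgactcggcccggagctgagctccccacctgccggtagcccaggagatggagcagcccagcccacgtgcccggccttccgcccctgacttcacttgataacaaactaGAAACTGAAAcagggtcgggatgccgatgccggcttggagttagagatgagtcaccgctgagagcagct

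IFIT5 promoter, chr10:89414368-89414567, plus strand: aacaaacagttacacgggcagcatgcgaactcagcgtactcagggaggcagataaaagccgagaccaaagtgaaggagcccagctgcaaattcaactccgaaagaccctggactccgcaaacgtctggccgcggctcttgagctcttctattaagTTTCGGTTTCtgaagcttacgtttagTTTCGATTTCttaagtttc

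IFI27 carried 2 cores on opposite strands, at 108 to 99 and 95 to 86 bases before the start. IFI44L carried 2 identical cores in a repeated stretch, from 164 and from 73 bases before the start. IFI6 carried 3 cores and ISG20 carried 1. IFIT5 carried 2 on the other strand within the last 45 bases. The first 4 of these genes were higher in both resistant lines and IFIT5 was lower in both. These 5 were chosen by the size of their differences, and a relation of the core to the differences was not tested. Over the 31 members with an entry, the median difference in HN4/DDP was 0.24 with a core and 0.32 without one, and in HN30/DDP 0.14 and 0.29. The 8 members with no entry are in neither group, among them IRF7, 2.36 higher in HN4/DDP, and DHX58, 2.73 higher in HN30/DDP.

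Levels are given as the log2 signal of a probe minus the 75th percentile of its array, so that 0 is a bright spot and each unit is a doubling, and a difference is the level on the resistant array minus that on the parental array. Levels of different genes come from different probes and were not compared. The scanner error gave a difference an SD of 0.20 for the median member, which covers the reading of a spot and not the variation between cultures. Between 55.3% and 63.6% of the spots of an array were well above background, no spot was saturated, and all arrays lay on 1 slide read in 1 scan. Of the members, 38 were well above background on every array. The exception was IFI44L, whose signal on HN30 was not well above background.

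Most members were higher in HN4/DDP than on its parental array. The difference was above 0 for 29 of 39 members, against 44.6% of the 26856 genes well above background on either array. Past a difference of 2, 5 members were higher, or 12.8%, beside 3.62% of all genes. These were IFI27, IFI44L, IFI6, IRF7 and OAS1. Past a difference of 1 there were 12, or 30.8%, beside 9.39%, with MX2, OAS2, IRF9, MX1, ISG20, TRIM22 and ISG15 added. No member was lower past 2, beside 2.19% of all genes, or past 1, beside 8.57%, and the lowest was RSAD2 at -0.95. The median difference was 0.41 over the members and -0.07 over all genes.

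In HN30/DDP the members were spread to both sides of HN30. The difference was above 0 for 24 of 39, against 52.8% of 28330 genes. Past 2, IFI44L and DHX58 were higher, which is 5.13% of members beside 8.35% of all genes. Past 1, 8 members were higher, or 20.5% beside 19.7%, and 5 were lower, or 12.8% beside 13.3%. None was lower past 2, beside 2.76% of all genes. With the 75th percentile, the shares of members past either threshold were thus near or under those of the array as a whole, and the median of 0.14 lay close to the 0.05 of all genes. These values depended on the scaling. With the median of each array as the reference, which moved the median of all genes to -0.36, 17 members were above 0 beside 34.9% of all genes, 6 were higher past 1 beside 13.7%, and 10 were lower beside 23.7%. With the percentile over probes well above background on every array, which moved it to 0.32, 27 were above 0 beside 64.7%, 15 were higher past 1 beside 25.4%, and 4 were lower beside 9.02%. Relative to all genes, the median of the members was 0.08 higher with the 75th percentile and under both of those scalings, against 0.48 in HN4/DDP, but 0.47 higher after quantile normalization and in the authors' table and 0.57 higher with the trend against brightness removed, where 26 members were above 0 beside 47.5% to 48.2% of all genes. Under these last settings 10 members were higher past 1 beside 16.2% to 18% of all genes, and 5 were lower beside 12% to 13.4%.

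**Figure D1:**
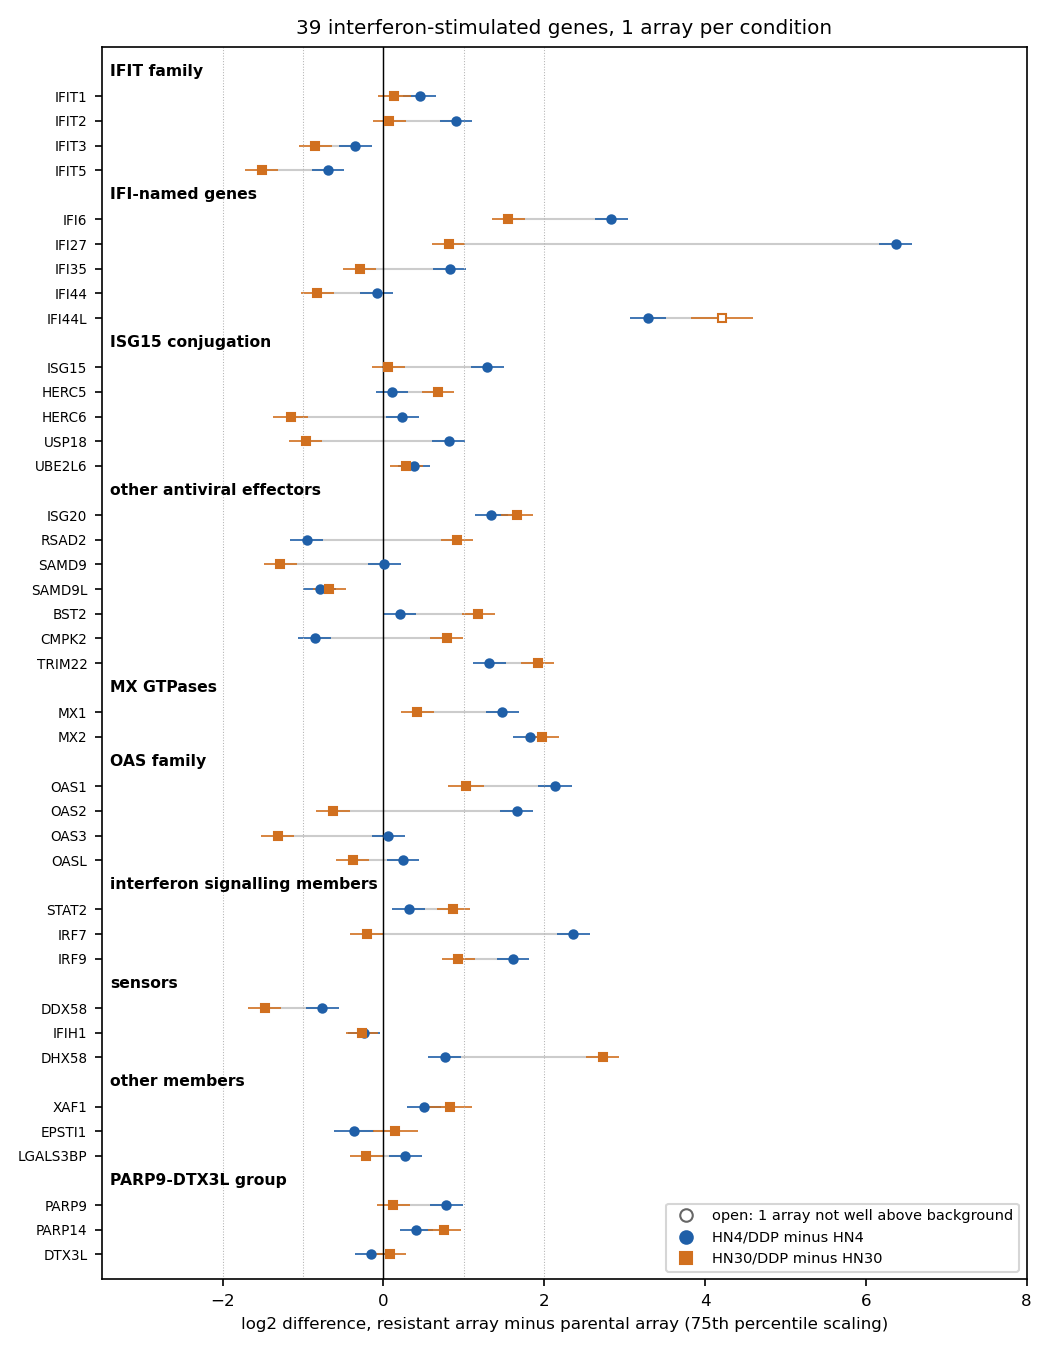
Log2 difference of each of the 39 members by role, with the resistant minus the parental array on the horizontal axis, circles for HN4 and squares for HN30. Bars are the SD from the scanner error, open symbols mark a pair with an array not well above background, and dotted lines mark 1 and 2. IFI27 stands at 6.37 in HN4/DDP and 0.81 in HN30/DDP, while IFI44L is high in both.

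Among the IFI-named genes, 4 of 5 were above their parental array in HN4/DDP and 3 of 5 in HN30/DDP, where the shares of all genes were 44.6% and 52.8%. IFI27, a small membrane protein strongly induced by interferon alpha, had levels of 1.28 on the HN4 array and 7.65 on HN4/DDP, and of -0.86 on HN30 and -0.05 on HN30/DDP. The HN4/DDP array stood far above the other three, at 82.8-fold the HN4 signal, and the difference was 6.37 in HN4/DDP against 0.81 in HN30/DDP. Its probe lies at chr14:94582967-94583026 of hg19. IFI44L, an antiviral gene, had levels of -2.88 on the HN4 array and 0.41 on HN4/DDP, and of -4.71 on HN30 and -0.50 on HN30/DDP. Both resistant arrays were above both parental arrays. The difference was 3.29 in HN4/DDP, and as HN30 was not well above background the signal of HN30/DDP was at least 17.1-fold higher than that of HN30, with a measured difference of 4.21. After normexp background correction with its offset the difference was 2.46 in HN4/DDP, or 5.52-fold in place of 9.80-fold, and 2.11 in HN30/DDP, or 4.32-fold. Its probe lies at chr1:79107590-79107649.

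IFI44, the neighbour of IFI44L on chromosome 1 with a probe at chr1:79128479-79128538, did not show this. It had levels of 3.11 on the HN4 array and 3.03 on HN4/DDP, and of 3.48 on HN30 and 2.66 on HN30/DDP, with differences of -0.08 and -0.82. IFI6, a mitochondrial protein that counteracts cell death, had levels of 0.73 on the HN4 array and 3.57 on HN4/DDP, and of 0.07 on HN30 and 1.62 on HN30/DDP. It was higher in both lines, by 2.83 and 1.55, and both resistant arrays were above both parental arrays. IFI35 differed by 0.83 in HN4/DDP and -0.29 in HN30/DDP.

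The OAS genes encode enzymes that make the second messenger of RNase L when they bind double-stranded RNA, and OASL is a relative without that activity. OAS1 had levels of -1.94 on the HN4 array and 0.20 on HN4/DDP, and of -2.82 on HN30 and -1.80 on HN30/DDP. It was higher by 2.14 and 1.03, and HN4/DDP alone stood apart, as HN30/DDP was near HN4. OAS2 had levels of -0.06 on the HN4 array and 1.60 on HN4/DDP, and of -1.06 on HN30 and -1.68 on HN30/DDP, that is 1.66 higher in the first line and -0.63 in the second. The 3 probes of OAS2 did not agree in HN30/DDP, where the other two gave 0.51 and 1.99, the last with HN30 not well above background, while in HN4/DDP all were higher, by 1.66, 2.79 and 3.72. OAS3 had levels of 1.75 on the HN4 array and 1.81 on HN4/DDP, and of 0.97 on HN30 and -0.34 on HN30/DDP. Only HN30/DDP was low, with differences of 0.06 and -1.31, and the second probe gave 0.08 and -1.03. OASL differed by 0.24 and -0.38. OAS1, OAS2 and OAS3 lie together on chromosome 12, and in HN30/DDP their differences ran from -1.31 to 1.03.

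The MX genes encode dynamin-like GTPases that trap viral nucleocapsids. MX1 had levels of 3.89 on the HN4 array and 5.37 on HN4/DDP, and of 3.03 on HN30 and 3.45 on HN30/DDP, with differences of 1.48 and 0.42. MX2 had levels of -0.31 on the HN4 array and 1.50 on HN4/DDP, and of -2.37 on HN30 and -0.39 on HN30/DDP. Its differences of 1.82 and 1.97 were alike in both lines, although HN30/DDP reached only the level of HN4. A second MX2 probe, designed on another transcript, gave -0.32 and 0.08.

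**Figure D2:**
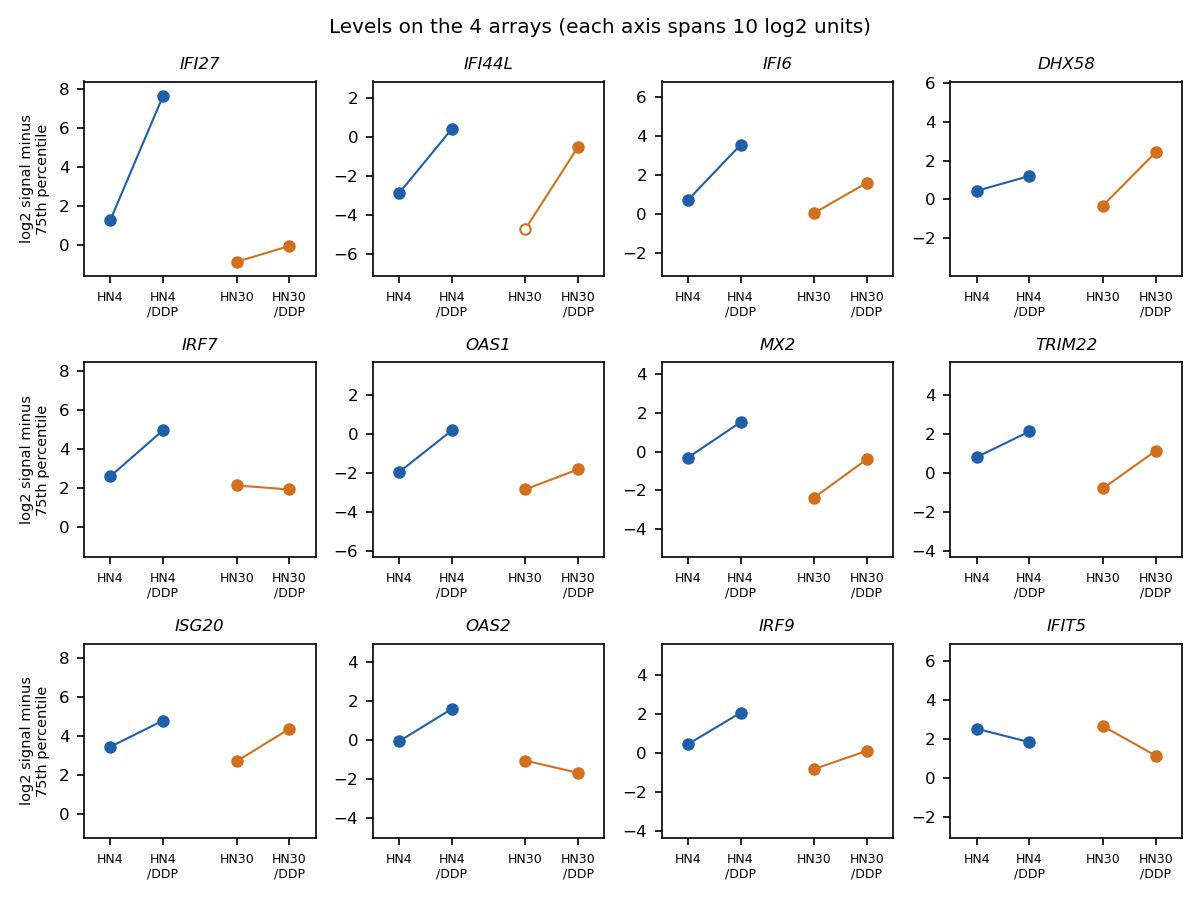
Levels (log2 signal minus the 75th percentile of the array) on the 4 arrays for the 12 members with the largest difference in either line, HN4 and HN4/DDP in blue, HN30 and HN30/DDP in orange. Each vertical axis spans 10 log2 units, and the open circle marks IFI44L on HN30, which was not well above background. IFI27, IRF7 and OAS2 separate the lines, while MX2, TRIM22 and ISG20 have like slopes in both.

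Of the transcription factors among the members, IRF7 differed most between the lines. It amplifies interferon production. It had levels of 2.60 on the HN4 array and 4.96 on HN4/DDP, and of 2.14 on HN30 and 1.93 on HN30/DDP. HN4/DDP was 2.36 above HN4, whereas HN30/DDP differed by -0.21 from HN30, a sign that turned under 4 of 9 alternatives. IRF9, the DNA-binding partner of STAT2, had levels of 0.46 on the HN4 array and 2.07 on HN4/DDP, and of -0.81 on HN30 and 0.12 on HN30/DDP. It was higher by 1.61 and 0.93, and its second probe gave 0.21 and 1.55. STAT2 differed by 0.32 and 0.87.

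The sensors of viral RNA moved apart from each other. DHX58, which encodes LGP2, a regulator of the other two sensors, had levels of 0.44 on the HN4 array and 1.20 on HN4/DDP, and of -0.31 on HN30 and 2.42 on HN30/DDP. It was 2.73 higher in HN30/DDP, 6.63-fold, and 0.76 higher in HN4/DDP. DDX58, which encodes RIG-I, had levels of 2.20 on the HN4 array and 1.43 on HN4/DDP, and of 2.38 on HN30 and 0.91 on HN30/DDP. Both resistant arrays were below both parental arrays, by -0.76 and -1.47, and its second probe gave -0.35 and -0.80. IFIH1, which encodes MDA5, differed by -0.24 and -0.27, the latter a sign that turned under 4 of 9 alternatives.

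The IFIT genes, which lie together on chromosome 10 and encode proteins that bind foreign RNA ends, differed by less than 1 in HN4/DDP on their brightest probes. IFIT2 was highest at 0.90, with 1.05 from its second probe and 1.01 after quantile normalization, IFIT1 stood at 0.45, IFIT3 at -0.35 and IFIT5 at -0.69. In HN30/DDP, IFIT1 and IFIT2 were at 0.14 and 0.07, and IFIT3 at -0.85. IFIT5 had levels of 2.55 on the HN4 array and 1.86 on HN4/DDP, and of 2.68 on HN30 and 1.17 on HN30/DDP. Both resistant arrays were below both parental arrays, with -1.51 in HN30/DDP as the lowest difference of any member.

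The ISG15 system tags proteins, with UBE2L6 as the conjugating enzyme, HERC5 as the ligase, HERC6 as its relative, and USP18 as the protease that removes the tag and also restrains the interferon receptor. ISG15 had levels of 6.37 on the HN4 array and 7.66 on HN4/DDP, and of 5.81 on HN30 and 5.87 on HN30/DDP. HN4/DDP was 1.29 above HN4, and HN30/DDP differed from HN30 by 0.06, with a range of -0.35 to 0.67 over the alternatives. USP18 had levels of 0.07 on the HN4 array and 0.88 on HN4/DDP, and of 0.62 on HN30 and -0.35 on HN30/DDP, so it was 0.81 higher in one line and -0.97 in the other. HERC6 had levels of -1.69 on the HN4 array and -1.45 on HN4/DDP, and of -1.72 on HN30 and -2.87 on HN30/DDP, with differences of 0.24 and -1.15, but its second probe gave 0.33 and 0.02 and did not show the low HN30/DDP value. HERC5 differed by 0.11 and 0.68, and UBE2L6 by 0.38 and 0.29.

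Of the other antiviral effectors, ISG20 and TRIM22 were higher in both lines. ISG20, an RNA exonuclease, had levels of 3.47 on the HN4 array and 4.81 on HN4/DDP, and of 2.73 on HN30 and 4.39 on HN30/DDP, with differences of 1.34 and 1.66. TRIM22, a ubiquitin ligase, had levels of 0.82 on the HN4 array and 2.14 on HN4/DDP, and of -0.78 on HN30 and 1.14 on HN30/DDP, with differences of 1.32 and 1.92. For both genes each resistant array was above both parental arrays. BST2, or tetherin, which holds budding virions at the membrane, had levels of 5.71 on the HN4 array and 5.91 on HN4/DDP, and of 3.99 on HN30 and 5.17 on HN30/DDP, so that HN30 alone was low and the difference there was 1.18, as its second probe gave at 1.20.

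RSAD2, which encodes viperin, and CMPK2, a mitochondrial nucleotide kinase, are neighbours on chromosome 2. RSAD2 had levels of 2.36 on the HN4 array and 1.41 on HN4/DDP, and of 0.24 on HN30 and 1.16 on HN30/DDP. CMPK2 had levels of 1.81 on the HN4 array and 0.96 on HN4/DDP, and of 0.19 on HN30 and 0.97 on HN30/DDP. Both were lower in HN4/DDP, by -0.95 and -0.85, and higher in HN30/DDP, by 0.92 and 0.79, which left HN30/DDP at -0.25 and 0.02 from HN4/DDP. The second CMPK2 probe gave -0.38 and -1.30, the latter with neither HN30 array well above background, and the mean of both probes gave -0.26 in HN30/DDP. SAMD9 and SAMD9L, neighbours on chromosome 7 that restrict poxviruses, did not follow each other in HN4/DDP, with 0.01 and -0.79, while in HN30/DDP they were at -1.28 and -0.67. SAMD9 had levels of -0.36 on the HN4 array and -0.35 on HN4/DDP, and of -0.32 on HN30 and -1.60 on HN30/DDP, so that HN30/DDP alone was low.

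PARP9, DTX3L and PARP14, neighbours on chromosome 3 whose products act in ADP-ribosylation, stayed within 1 of the parental arrays, at 0.78, -0.15 and 0.41 in HN4/DDP and 0.12, 0.08 and 0.76 in HN30/DDP. The PARP14 difference in HN30/DDP ran from 0.35 to 1.11 over the alternatives. A second PARP9 probe gave -0.24 and -0.45. Of the remaining members, XAF1, a proapoptotic partner of XIAP, differed by 0.50 and 0.83, EPSTI1 by -0.37 and 0.15, and LGALS3BP, a secreted galectin-binding protein, by 0.27 and -0.21. The sign in HN30/DDP turned under 5 of 9 alternatives for EPSTI1 and under 4 of 9 for LGALS3BP.

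Both resistant lines were compared side by side, as their 2 pairs of arrays share no sample. Past 1, 6 members were higher in both, which is 15.4% beside 3.92% of the 29525 genes well above background on any array. They were IFI44L, IFI6, MX2, TRIM22, ISG20 and OAS1, of which IFI44L, IFI6, TRIM22 and ISG20 were past 1 in both lines under all 9 alternatives of scaling and signal, while OAS1 was not under 6 of them, nor MX2 with the mean of its probes. The count over these alternatives ran from 5 to 8. None was lower past 1 in both, beside 1.72%. Opposite signs were found for 13 members, or 33.3% beside 43.6%, and for 11 to 16 members over the alternatives. Across the members the differences in the lines had a Pearson r of 0.46 and a Spearman rho of 0.49 (n = 39 genes), against 0.22 and 0.20 across all 29520 genes with a value in both, as a description, since genes measured on the same arrays are not independent. Without IFI27 and IFI44L the members had r = 0.44.

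**Figure D3:**
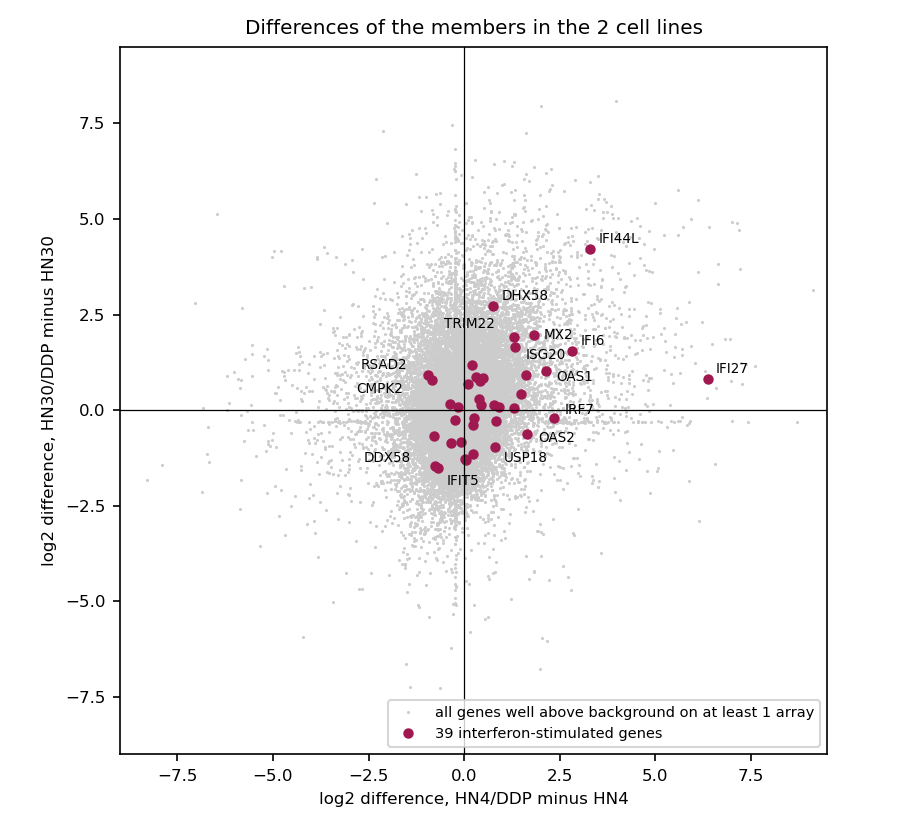
Log2 difference of HN4/DDP minus HN4 against HN30/DDP minus HN30, with the 39 members in red over all genes detected above background on any array in grey. IFI44L, IFI6, MX2, TRIM22, ISG20 and OAS1 lie in the upper right, IFI27 lies near the horizontal axis at 6.37, and RSAD2 and CMPK2 lie opposite USP18 and OAS2.

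With the lines as replicates, the 2 resistant arrays were tested against the 2 parental arrays in limma, blocked by cell line, with 1 residual degree of freedom for each gene. No member passed an adjusted p of 0.05 in limma, nor did any of the 29520 genes, while 8 members and 2485 genes had an unadjusted p under 0.05. The smallest adjusted p among members was that of IFI44L in limma, 0.42, with a mean difference of 3.75 ± 0.40 (SE, n = 2 lines), which takes the dim HN30 signal at its measured value and is no bound. MX2 followed with 1.90 ± 0.37 (SE, n = 2 lines), IFI6 with 2.19 ± 0.51 and ISG20 with 1.50 ± 0.37. IFI27 had 3.59 ± 1.40, with the largest standard error of those named here. With the median of each array as the reference, IFI44L was the only member to pass, among 341 genes, at an adjusted p of 0.0017 in limma, again with the dim HN30 signal as measured, while under the other alternatives the smallest adjusted p of any member in limma ran from 0.085 to 0.68.

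The parental lines already differed. The HN30 array was below the HN4 array for 32 of 39 members, against 47.8% of 25891 genes, with a median of -0.74 beside 0.03 over all genes. Past 1, 9 members were lower, or 23.1% beside 7.19%, and none was higher, beside 3.27%. Past 2, 4 were lower, or 10.3% beside 1.91%, and none was higher, beside 0.892%. These were IFI27 at -2.14, RSAD2 at -2.12, MX2 at -2.05 and XAF1 at -2.04. The count of 4 ran from 0 to 4 over the alternatives. After normexp correction none was past 2, with RSAD2 at -1.96, MX2 at -1.51 and XAF1 at -0.99, and with the mean of each gene's probes RSAD2 stood at -1.03 and MX2 at -1.14. The RSAD2 mean takes in a second probe that was not well above background on any array. IFI44L was at least 3.29-fold lower in HN30, where it was not well above background, and 1.38-fold lower after normexp correction. USP18 was the member furthest the other way, at 0.54. These values share the parental arrays with the differences above.

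The resistant lines differed in the same direction. HN30/DDP was below HN4/DDP for 36 of 39 members, against 44.1% of 28730 genes, with a median of -0.78 beside 0.11 over all genes. Past 2, 4 members were lower, or 10.3% beside 2.68%, and none was higher, beside 5.62%. IFI27 was 208-fold lower, a difference of -7.70, followed by OAS2 at -3.28, IRF7 at -3.04 and OAS3 at -2.16. Past 1, 17 were lower, or 43.6%, beside 3079 of the 28730 genes, and only DHX58 was higher, at 1.22, beside 16% of all genes. How this comparison depends on the scaling was not examined.

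**Figure D4:**
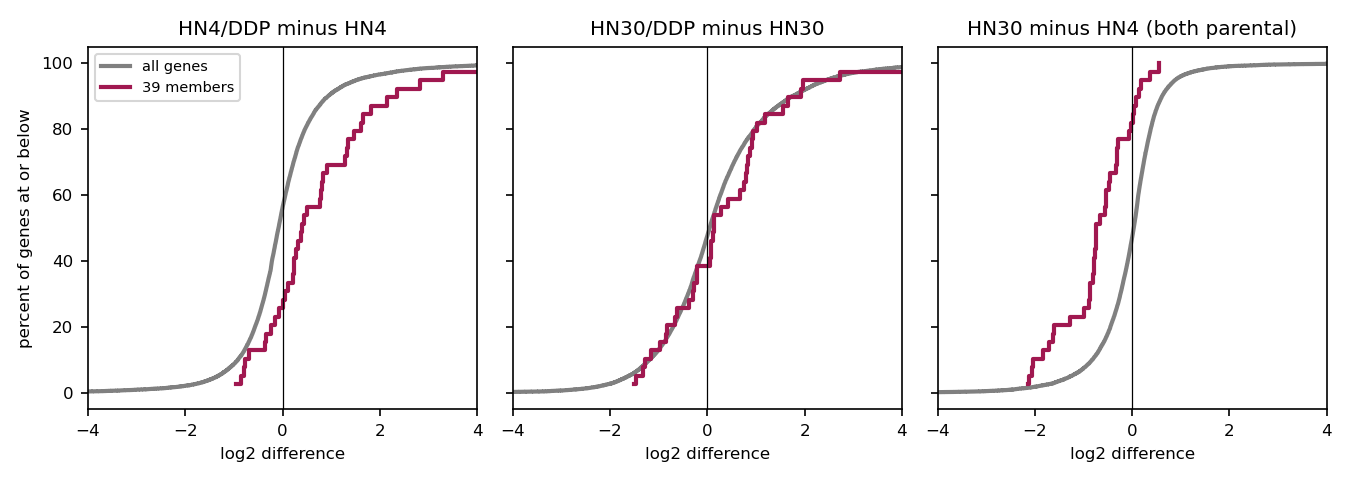
Percent of genes at or below each log2 difference, for the 39 members in red and all genes detected above background on any array in grey, in the 3 comparisons named above the panels. Axes end at -4 and 4. The members lie to the right of all genes in HN4/DDP, over them in HN30/DDP, and to the left for HN30 against HN4, where their median is -0.74.

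The interferons themselves were mostly too dim to read. Of 17 ligand genes on the arrays, 11 were not well above background on any array, among them IFNK, IFNG and 8 of the 9 IFNA genes. IFNB1, an early type I interferon of infected cells, was well above background on HN4/DDP alone, where it was at least 1.1-fold higher than in HN4. IFNL1, a type III interferon that acts on epithelia, was well above background on both resistant arrays and on neither parental array. IFNL1 was at least 2.88-fold higher in HN4/DDP and at least 1.60-fold higher in HN30/DDP. IFNE, a type I interferon of mucosal epithelium, was measured on every array and differed by -1.20 in HN4/DDP and -0.56 in HN30/DDP. IFNL2, also measured on every array, differed by 0.67 and 1.27.

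All 9 receptor and kinase genes listed were well above background on every array, and none was past 2 in either line. IFNAR1 was lower in both resistant lines, by -1.09 and -1.90, and IFNAR2 differed by -0.52 and -0.19. Past 1, none was higher in either line, 2 were lower in HN4/DDP, and 1 was lower in HN30/DDP. Counts past 1 in the related lists stand beside 9.39% of all genes higher and 8.57% lower in the first line, and 19.7% and 13.3% in the second. Of 14 genes of nucleic acid sensing, 1 was higher past 1 in HN4/DDP, or 7.14%, while in HN30/DDP 2 were higher and 6 lower, or 14.3% and 42.9%. The 6 lower were AIM2 at -1.87, MAVS at -1.78, IKBKE at -1.62, MB21D1 at -1.51, MYD88 at -1.23 and IFI16 at -1.03. AIM2 was the 1 higher in HN4/DDP, at 1.42. The 2 higher in HN30/DDP were TMEM173, at 1.19, and ZBP1. ZBP1, a sensor of Z-form nucleic acid, was at least 2.85-fold higher in HN30/DDP, with a measured difference of 2.08 from HN30, which was not well above background, against -0.29 in HN4/DDP. Of 10 negative regulators, none was past 1 in HN4/DDP, and 1 was higher and 1 lower in HN30/DDP.

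Of 16 genes known as targets of interferon gamma, 13 could be read in at least 1 pair. In HN4/DDP 4 of 12 measured were higher past 1 and 1 was lower, or 33.3% and 8.33%, beside 9.39% and 8.57% of all genes. In HN30/DDP 3 of 13 were higher, or 23.1%, near the 19.7% of all genes, and none was lower, beside 13.3%. These counts use measured differences, also where a parental array was dim, that is not well above background. CXCL10, a chemokine for T cells, was dim on HN4 and at least 1.47-fold higher in HN4/DDP, and differed by 0.25 in HN30/DDP. GBP2, a guanylate-binding protein, had levels of -0.58 on the HN4 array and 0.14 on HN4/DDP, and of -2.45 on HN30 and 1.85 on HN30/DDP, and was 4.29 higher in HN30/DDP against 0.72 in HN4/DDP. CXCL11, another chemokine for T cells, was dim on both parental arrays and was at least 4.58-fold higher in HN4/DDP and at least 1.36-fold higher in HN30/DDP. IRF1, a transcription factor induced early by interferon gamma, differed by -0.90 and 0.48.

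IFITM1, IFITM2 and IFITM3 encode membrane proteins that block viral fusion, are induced by the same pathway and were not among the 39. IFITM1 had levels of -0.78 on the HN4 array and 6.37 on HN4/DDP, and of -2.29 on HN30 and 2.62 on HN30/DDP, and was higher by 7.15 and 4.91. IFITM2 and IFITM3 differed by 1.58 and 1.46 in HN4/DDP and by 0.36 and 0.30 in HN30/DDP. IFITM10, a relative not known as an interferon target, was 5.20 higher in HN30/DDP and differed by -0.43 in HN4/DDP. Among 15 genes of HLA class I presentation, the median difference was -0.32 in HN4/DDP and 0.18 in HN30/DDP. Past 1, 2 were lower in HN4/DDP, or 13.3% beside 8.57% of all genes, and none was higher. In HN30/DDP 1 was higher and 1 lower, each 6.67%, beside 19.7% and 13.3%. TAP2, a subunit of the peptide transporter, was lower past 1 in both, by -1.07 and -1.63.

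**Figure D5:**
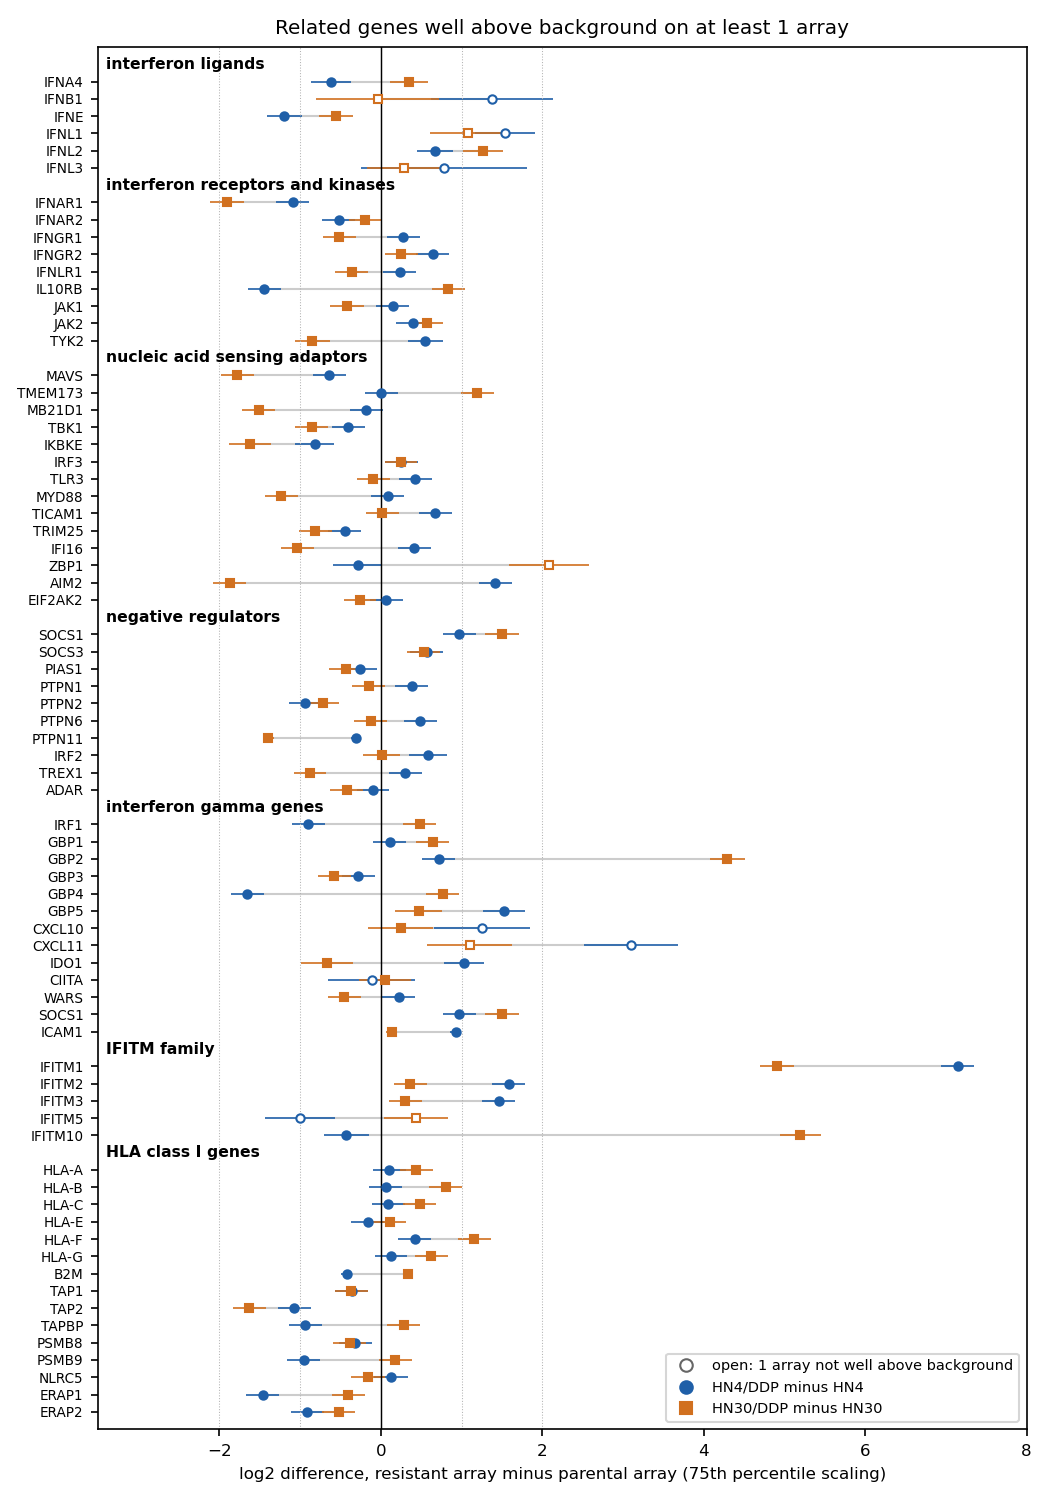
Log2 difference of the related genes that were detected well above background on any array, by list, with the resistant minus the parental array on the horizontal axis, circles for HN4 and squares for HN30. Bars are the SD from the scanner error and open symbols mark a pair with an array not well above background. IFITM1 is high in both lines, GBP2 and IFITM10 in HN30/DDP, and IFNAR1 is low in both.

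The labelled cell type was checked by markers. Of 10 squamous and epithelial markers, 9 were well above background on every array, among them SFN, DSP, CDH1, EPCAM and TP63, and KRT6A was not so on HN30/DDP. The keratins differed between arrays. KRT5 differed by -4.04 in HN4/DDP and -1.93 in HN30/DDP, KRT16 by 5.26 and 1.81, KRT17 by 3.30 and 0.19, and KRT14 by 2.34 and 0.22. KRT6A was 3.33 higher in HN4/DDP and at least 183-fold lower in HN30/DDP. Of 9 leukocyte markers on the arrays, 4 were well above background on every array, PTPRC, CD3D, CD14 and ITGAM, and 2 on none, MS4A1 and CLEC4C. CD14 was 3.48 higher in HN30/DDP and 0.57 in HN4/DDP, and ITGAM 2.06 and 1.54. IL3RA was at least 1.51-fold higher in HN4/DDP, with HN4 not well above background, and differed by 0.37 in HN30/DDP. Of 7 fibroblast markers, 5 were well above background on none of the arrays, COL1A2, COL3A1, DCN, LUM and PDGFRA, while COL1A1 was 1.73 and 2.43 higher. Of 5 endothelial markers, CDH5 was well above background on every array and TEK on none. CLDN5 was well above background on HN30/DDP alone, at least 5.74-fold above HN30. VWF was at least 5.40-fold higher in HN4/DDP and differed by 1.49 in HN30/DDP. PECAM1 was at least 2.04-fold lower in HN4/DDP and at least 1.64-fold higher in HN30/DDP. Signals of each list were also summed, as multiples of the 75th percentile of the array. The sum of the squamous and epithelial markers was 280 on HN4 and 294 on HN4/DDP, and 274 on HN30 and 174 on HN30/DDP. That of the leukocyte markers was 6.73 on HN4 and 9.96 on HN4/DDP, and 4.03 on HN30 and 40.9 on HN30/DDP, nearly all of it CD14. Sums of the fibroblast and endothelial markers stayed between 0.236 and 1.07. The part of these markers in the differences of the members was not tested.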

How the data were processed

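RNA of the parental and resistant lines was hybridised to 4 one-colour Agilent arrays, 1 for each condition. The authors deposited scanner files with the processed intensity of each spot, made with Agilent Feature Extraction 10.7.1.1 according to the submitters' processing notes, which subtracts background and marks spots well above it. Probe coordinates in them are those of hg19. A second file that the authors deposited holds log2 values, where all arrays have a median of 4.65 and identical quantiles. The steps before that quantile step and any centring are not given in the sources used here. That table served only as an alternative.

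From the deposited intensities of 60901 spots that are not controls, outlier spots were left out, log2 was taken and each array's 75th percentile subtracted, so that 0 is a signal of 435 to 481 units. A gene was represented by its brightest probe in the mean of the arrays (13 members had more than 1 probe, and each member probe had 1 spot). A member was counted past a threshold of 2 or 1 where the array with the higher signal was well above background. For a dim array the fold is a bound, set by the higher of the lowest level well above background on that array, between -4.95 and -4.60, and the probe's own level. The number of arrays limits the precision. The resistant and parental arrays were compared in limma 3.58.1 (R 4.3.3) by eBayes with a trend, the cell line as a block, and Benjamini-Hochberg adjustment over all genes. The remaining steps ran in Python 3.11.15 with pandas 2.3.3 and numpy 2.4.6. The counts and the limma fit were also run on simulated data, with equal noise on every array and the changed genes raised alike in both lines. That setting differs from these lines, so the run does not show how the fit performs on them.

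The members, the related lists (interferon ligands, receptors and kinases, nucleic acid sensing, negative regulators, interferon gamma targets, IFITM and HLA class I genes, markers) and the rules were chosen with earlier results of these data known. All members past 1 in either line were to be named with their levels, the others by difference, and related genes where past 2 or from a short set list. Alternatives were normexp on the mean signals with an offset of 50, quantile normalization, the median or another percentile as the reference, removal of a lowess trend against brightness, the authors' table, dim signals set to the lowest level well above background, a pseudocount of 16, the mean of a gene's probes, and other filters. Whether the probes lie in coding or untranslated exons was not analysed here. Genes of the related lists outside this rule are given by counts alone, and 2 further genes were taken out of the lists and are not reported here.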

Additional observations from a re-analysis of the deposited data

Results flagged for a closer look

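In 4 members the lines moved to opposite sides by more than 2 SD of the scanner error in each, which is 10.3% beside 7.15% of 29520 genes. With 1 pair of arrays per line this difference between the lines was not tested. OAS2 was 1.66 higher in HN4/DDP but -0.63 in HN30/DDP, where the mean of its probes gave 0.62. RSAD2 differed by -0.95 in HN4/DDP against 0.92 in HN30/DDP, and CMPK2 by -0.85 and 0.79, where the mean of its probes gave -0.26 in HN30/DDP. USP18 differed by 0.81 in HN4/DDP and -0.97 in HN30/DDP. Each kept its signs under the other alternatives run.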

How the results depend on the processing

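The count of 5 members higher past 2 in HN4/DDP stayed between 4 and 6 under 10 alternatives at that threshold and was 12 at a threshold of 1. The count of 2 in HN30/DDP was 3 after quantile normalization and in the authors' table (ISG20 added), 4 with the percentile over probes well above background on all arrays, 4 with the brightness trend removed, 1 where both arrays had to be well above background (DHX58 alone), and 8 at a threshold of 1. No member was lower past 2 under any alternative, and at a threshold of 1 the lower count was 5 in HN30/DDP and 0 in HN4/DDP. The median of the members in HN30/DDP, 0.14, was 0.43 after quantile normalization beside -0.04 for all genes, 0.41 in the authors' table beside -0.06, 0.53 with the trend removed beside -0.04, 0.40 with the percentile over probes well above background on all arrays beside 0.32, and -0.28 with the median of each array beside -0.36. The cause was not tested. The medians in HN4/DDP and between the parental lines moved by less than the scanner SD under each alternative. In limma, the median of each array gave 1 member past the threshold in place of 0.

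The replicate numbers of the labels pair nothing, as each condition has 1 array, and the pairing used in limma is the cell line. Without that block no member passed either, with 6 at an unadjusted p under 0.05 in place of 8. Leaving out a line leaves no residual degrees of freedom and gives a value with no test. Each array stands for 1 culture, the slide holds all groups once, and a difference carries cell culture variation that these arrays cannot show. On the probes used, IFI44L was the only member with an array not well above background, while most interferon ligands had such arrays. Background treatment also moved other members, as XAF1 between the parental lines went from -2.04 to -0.99 after normexp correction.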
